A study of Homo sapiens with 9 samples.

Results

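The insulin-like growth factor (IGF) binding proteins, the IGF and insulin receptors and the adaptor IRS2 were examined by RNA sequencing in Huh7, a human liver cancer cell line derived from a hepatocellular carcinoma. The 10 genes were chosen by symbol from the 27800 gene symbols listed: the binding proteins IGFBP1 to IGFBP6, the receptors IGF1R, IGF2R and INSR, and IRS2. All 10 were listed. They were proposed with the levels and fold changes of these libraries known, so the values below are descriptions and no p is given for any of them. Total RNA was sequenced from 9 libraries in 3 groups of 3. All groups were unmodified Huh7 cells grown in DMEM with 10% serum, and none carried a genetic change stated in the labels. The control cells were given vehicle; the labels tell neither what it was nor how long it was applied. The other cells were given either 5 uM FIDAS-5, an inhibitor of the methionine adenosyltransferase MAT2A, or 0.5 uM JQ1, an inhibitor of the BET bromodomain proteins, each for 48 h. The cells are a single line, each compound was given at 1 dose, and nothing in the labels tells whether replicates were grown as separate cultures. The spread between libraries may therefore be technical.

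IGF1 and IGF2 are small secreted ligands that signal through IGF1R and, less strongly, through the insulin receptor INSR, both of them tyrosine kinases that pass the signal to adaptors such as IRS1 and IRS2. The binding proteins are secreted, hold the ligands outside the cell and control how much of them reaches the receptors. IGF2R has no kinase activity: it takes up IGF2 for degradation and, as the mannose 6-phosphate receptor, carries enzymes to the lysosome. In liver, insulin lowers transcription of IGFBP1 by keeping FOXO transcription factors out of the nucleus, and fasting raises it.

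The values were TPM, a level per transcript length scaled to the same total in each library. The 13573 genes that reached 1 TPM in 3 or more libraries were tested. Sequencing depth is unknown, because this unit does not retain read numbers. From 12229 to 13014 genes per library were at 1 TPM or more. Departures of single libraries from their group mean moved with the GC content of transcripts, from a Spearman correlation of -0.654 across genes in JQ1 replicate 1 to 0.641 in JQ1 replicate 3, and genes are not independent replicates. HEXIM1, a gene known to rise when BET proteins are inhibited, was at 6.16 ± 0.153 TPM in vehicle and 23.3 ± 4.40 with JQ1, and MAT2A mRNA at 95.5 ± 15.4 in vehicle and 78.7 ± 9.66 with FIDAS-5 (SD, n = 3). All 6 hepatocyte markers examined reached 1 TPM in at least 3 libraries, with ALB at 1243 ± 323 TPM (SD, n = 3) in vehicle. Of 7 fibroblast and stellate cell markers, 5 were under 1 TPM in every library, and the summed level of the list was 1.12 to 2.16 TPM in vehicle, 2.40 to 2.66 after FIDAS-5 and 1.72 to 1.98 after JQ1.

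Of the 10 genes, 7 passed the filter on low values. IGFBP2, IGFBP5 and IRS2 did not reach 1 TPM in any library. IGFBP1, IGFBP3 and IGFBP6 passed only because of the FIDAS-5 libraries, so counts over the genes that passed describe them and support nothing.

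The sequences before the start sites are given for the receptors, because the receptor transcripts moved apart from each other, and for IGFBP3, which moved in opposite directions with the 2 compounds. Sequences are from RefSeq on GRCh38.p14 and hold the 250 bases before the RefSeq start of the gene, 5′ to 3′ on its own strand. RefSeq and GENCODE starts can differ: GENCODE also lists an IGFBP3 transcript that starts farther out, so the IGFBP3 window lies inside the span given for that gene below. The table used held 9 of the 10 genes, and IGFBP1 is named only. In the receptor sequences, capitals mark CACGTG (the E-box, its own reverse complement) and GGGCGG (the GC box) on either strand. In IGFBP3 they mark GCGTG, the core of the site bound by the aryl hydrocarbon receptor, on either strand. The windows are chr6:159968832-159969081 on the plus strand for IGF2R, chr19:7294415-7294664 on the minus strand for INSR, chr15:98648289-98648538 on the plus strand for IGF1R and chr7:45921273-45921522 on the minus strand for IGFBP3.
IGF2R: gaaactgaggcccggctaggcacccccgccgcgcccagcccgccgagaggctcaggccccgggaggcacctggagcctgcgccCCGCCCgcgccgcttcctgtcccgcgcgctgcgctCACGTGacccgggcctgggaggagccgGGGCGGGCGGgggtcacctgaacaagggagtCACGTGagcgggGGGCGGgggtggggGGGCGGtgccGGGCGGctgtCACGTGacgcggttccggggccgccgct
INSR: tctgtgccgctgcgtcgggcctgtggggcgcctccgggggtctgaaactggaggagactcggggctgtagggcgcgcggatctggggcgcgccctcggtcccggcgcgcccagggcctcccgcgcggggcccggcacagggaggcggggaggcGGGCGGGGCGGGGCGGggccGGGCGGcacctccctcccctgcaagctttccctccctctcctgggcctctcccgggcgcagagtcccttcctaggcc
IGF1R: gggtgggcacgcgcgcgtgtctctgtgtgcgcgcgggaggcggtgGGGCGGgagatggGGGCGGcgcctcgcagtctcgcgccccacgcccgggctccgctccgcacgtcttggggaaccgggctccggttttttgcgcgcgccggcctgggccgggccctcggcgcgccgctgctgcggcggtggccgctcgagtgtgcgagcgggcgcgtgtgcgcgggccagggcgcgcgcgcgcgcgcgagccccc
IGFBP3: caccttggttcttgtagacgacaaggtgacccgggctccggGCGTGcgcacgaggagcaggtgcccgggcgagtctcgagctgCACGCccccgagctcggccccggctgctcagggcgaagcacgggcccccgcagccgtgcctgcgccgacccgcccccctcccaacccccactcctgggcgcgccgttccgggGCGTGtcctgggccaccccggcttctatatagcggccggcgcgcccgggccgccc
CACGTG was found 3 times in the IGF2R window and not in the other 3. Of 27305 windows of the same length, 1 per gene, 6.49% held it at least once and 0.0879% at least 3 times. All 3 copies in IGF2R lay within the longer letters TCACGTGA, which 0.890% of windows held at least once and 4 windows held 3 times. The longer letters were searched after the sequence had been read. GGGCGG, present in 42.3% of windows and at least 3 times in 14.0%, was found 6 times in IGF2R, 4 times in INSR and 2 times in IGF1R. Neighbouring copies can overlap. GCGTG was found 3 times in IGFBP3 and 4 times in IGF1R, where it is not marked, and not in IGF2R or INSR. At least 1 copy was held by 31.9% of windows and at least 3 copies by 3.17%. The insulin response core CAAAACA and the FOXO core GTAAACA, held by 4.34% and 2.98% of windows on either strand, were found once each among the 9 genes, in IRS2 and in IGFBP6. The shares over all windows were not matched for base composition. The median GC content of the windows was 58.0%, beside 79.2% for IGF2R, 78.4% for INSR, 81.2% for IGF1R and 76.0% for IGFBP3. These matches describe letters and not binding.

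**Figure D1:**
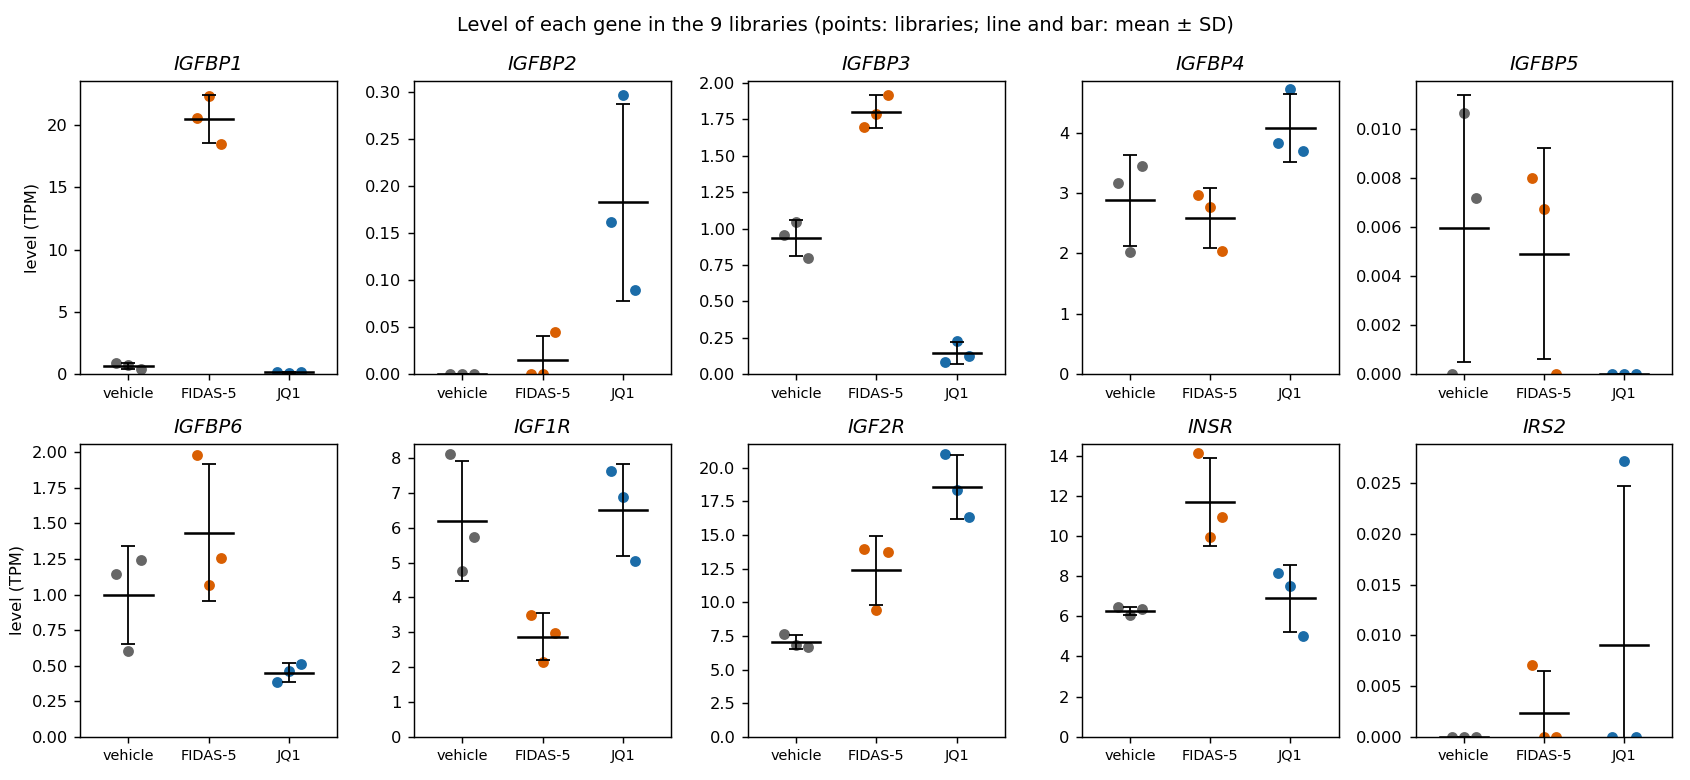
Level of each gene in TPM in the 9 libraries, on a separate linear scale for each gene; points are libraries, and the line and bar are the mean ± SD of 3, cut at 0. IGFBP1 stood at 18.5 to 22.4 TPM with FIDAS-5 and under 1 TPM elsewhere, whereas IGF2R was lowest in vehicle and highest with JQ1.

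IGFBP1, the binding protein whose transcription in liver follows fasting and insulin, had the widest range of the 10 genes. It was at 0.916, 0.701 and 0.427 TPM in the vehicle libraries, at 20.6, 22.4 and 18.5 TPM with FIDAS-5 and at 0.144, 0.0866 and 0.184 TPM with JQ1. The 3 groups did not overlap, and every FIDAS-5 library was above every other library. The mean with FIDAS-5 was 30.1-fold that of vehicle, and the difference in log2(TPM + 1) was 3.68 (SE 0.14). With JQ1 the mean was 4.93-fold lower than in vehicle, a difference of -0.55 (SE 0.14) on that scale. The pseudocount of 1 TPM compresses changes at these levels: with 0.1 the differences were 4.77 and -1.68. In a bulk sample, fewer cells making a transcript and less of it per cell cannot be told apart.

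IGFBP1 lies on chromosome 7 from 45888357 to 45893668 on the plus strand, and IGFBP3 lies next to it from 45912245 to 45921874 on the minus strand, so the neighbours point at each other across 18.6 kb. IGFBP3 is the main carrier of IGFs in blood. It was at 0.959, 1.04 and 0.801 TPM in vehicle, 1.70, 1.79 and 1.92 TPM after FIDAS-5 and 0.0840, 0.228 and 0.123 TPM after JQ1. These groups did not overlap either and had the same order as for IGFBP1, on a smaller scale: the mean with FIDAS-5 was 1.93-fold that of vehicle, and with JQ1 it was 6.45-fold lower. The differences in log2(TPM + 1) were 0.54 (SE 0.11) and -0.76 (SE 0.11). With a pseudocount of 0.1 the latter was -2.11. The gene on the other side of IGFBP1, the adenylyl cyclase ADCY1, stayed below 0.1 TPM on average in every group.

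IGFBP6, a binding protein that prefers IGF2, followed the same order with overlap. It was at 1.15, 0.601 and 1.24 TPM in vehicle, 1.98, 1.07 and 1.26 TPM after FIDAS-5 and 0.382, 0.461 and 0.512 TPM after JQ1. All JQ1 libraries were below all others, while FIDAS-5 and vehicle overlapped. The difference from vehicle was 0.28 (95% interval -0.13 to 0.69) with FIDAS-5 and -0.45 (95% interval -0.85 to -0.04) with JQ1 on the log2 scale. IGFBP6 lies on chromosome 12 (53097436 to 53102345), and 1.17 kb beyond its end begins SOAT2, an enzyme that esterifies cholesterol in liver and gut. SOAT2 was at 11.2 ± 0.216 TPM in vehicle, 10.1 ± 1.47 after FIDAS-5 and 1.51 ± 0.219 after JQ1 (SD, n = 3).

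IGFBP4, which mainly restrains IGF action, was the most abundant binding protein transcript in vehicle and went the other way with JQ1. It was at 3.16, 2.03 and 3.45 TPM in vehicle, 2.97, 2.76 and 2.03 TPM after FIDAS-5 and 3.82, 4.72 and 3.70 TPM after JQ1. The JQ1 libraries lay above all others, and FIDAS-5 and vehicle overlapped. The difference from vehicle was -0.10 (95% interval -0.51 to 0.31) with FIDAS-5 and 0.40 (95% interval -0.01 to 0.82) with JQ1. Its neighbour TOP2A on chromosome 17, a topoisomerase of dividing cells whose start is 25.5 kb away, was at 54.4 ± 8.08 TPM in vehicle, 17.6 ± 5.06 after FIDAS-5 and 33.7 ± 11.2 after JQ1 (SD, n = 3).

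IGFBP2 and IGFBP5 are also neighbours that point at each other, across 7.67 kb of chromosome 2, and both were near 0. IGFBP2 was listed at 0 in vehicle replicates 1, 2 and 3 and in FIDAS-5 replicates 1 and 2, at 0.0448 TPM in FIDAS-5 replicate 3 and at 0.162, 0.296 and 0.0898 TPM with JQ1. The JQ1 libraries were above all others, but no fold can be given against values listed at 0. IGFBP5 was at most 0.0107 TPM and was listed at 0 in 5 libraries, among them all 3 with JQ1. The ribosomal protein gene RPL37A on the other side of IGFBP2 was at 909 ± 157 TPM in vehicle (SD, n = 3).

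Summed over the binding proteins, the level was 6.18, 4.38 and 5.93 TPM in vehicle, 27.2, 28.0 and 23.8 TPM after FIDAS-5 and 4.59, 5.79 and 4.61 TPM after JQ1. IGFBP1 made up 12.7% ± 4.77 of that sum in vehicle, 77.8% ± 2.17 after FIDAS-5 and 2.87% ± 1.27 after JQ1 (SD, n = 3). IGFBP4 made up 51.9% ± 5.99 in vehicle, 9.77% ± 1.17 after FIDAS-5 and 81.7% ± 1.46 after JQ1. The leading binding protein transcript was thus IGFBP4 in vehicle and JQ1 libraries and IGFBP1 in FIDAS-5 libraries.

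**Figure D2:**
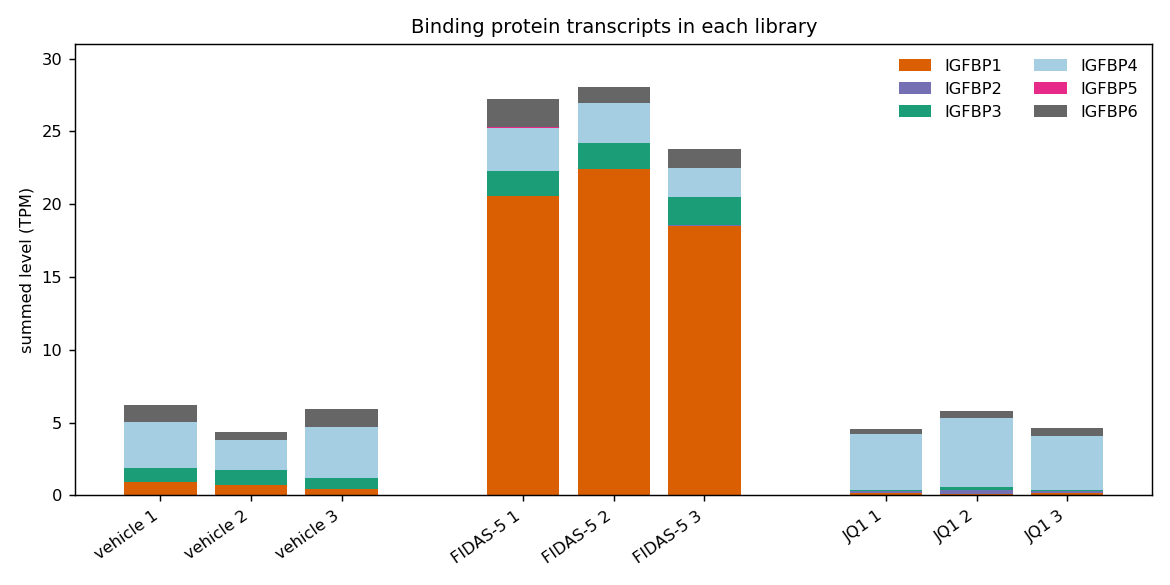
Summed level in TPM of the 6 binding protein transcripts in each library, stacked by gene from 0. The FIDAS-5 bars reach 23.8 to 28.0 TPM and are mostly IGFBP1, and the other bars reach 4.38 to 6.18 TPM, with IGFBP4 as the largest share.

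Some cell type markers had the same order of groups as IGFBP1 and IGFBP3. Among hepatocyte markers TTR had it, at 298 ± 10.2 TPM in vehicle, 576 ± 44.0 after FIDAS-5 and 89.3 ± 0.351 after JQ1 (SD, n = 3). The means of ALB, APOA1, HNF4A and SERPINA1 were instead highest with JQ1, and that of AFP was lowest with FIDAS-5. Among markers of other cell types, the means of LYZ, PECAM1, CD68, LCP1, EPCAM, MUC1 and PDGFRB had that order. So did those of LUM, CD3E and KDR, all under 1 TPM. The means of CD14, PTPRC, KRT19, SOX9, COL1A1, COL1A2, COL3A1 and ACTA2 did not. In vehicle, FIDAS-5 and JQ1 libraries CD68 averaged 3.71, 6.99 and 2.12 TPM and LCP1 7.58, 16.9 and 7.16 TPM. EPCAM averaged 5.76, 8.55 and 4.27 TPM and MUC1 0.571, 1.87 and 0.139 TPM. The summed level of 6 leukocyte markers was 115 to 141 TPM in vehicle, 253 to 312 after FIDAS-5 and 19.2 to 28.1 after JQ1. Most of it was lysozyme, LYZ, at 113 ± 11.7, 253 ± 27.9 and 12.4 ± 2.50 TPM (SD, n = 3). Of the defining leukocyte markers, PTPRC was at most 0.918 TPM and CD3E at most 0.358 TPM in any library. The endothelial marker PECAM1 was at 8.69 ± 1.88, 16.1 ± 0.681 and 1.43 ± 0.164 TPM, whereas CDH5 was listed at 0 and VWF and KDR were under 1 TPM in every library. The leukocyte marker CD14 did not share that order, at 2.40, 1.98 and 1.93 TPM on average in vehicle, FIDAS-5 and JQ1 libraries. The summed cholangiocyte list was at 26.3 to 32.3 TPM in vehicle, 24.4 to 39.6 after FIDAS-5 and 31.9 to 48.5 after JQ1, with KRT7 listed at 0 throughout. The part of these markers in the levels of IGFBP1 and IGFBP3 was not tested. The summed JQ1 values of the fibroblast and stellate list lay within those of vehicle, but single markers moved apart. In vehicle, FIDAS-5 and JQ1 libraries COL1A2 averaged 0.719, 0.565 and 1.42 TPM and PDGFRB 0.674, 1.08 and 0.0680 TPM. The markers DCN, LUM, COL1A1 and COL3A1 of that list were under 1 TPM throughout.

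The receptors were the most abundant of the 10 transcripts in vehicle, where IGF2R, INSR and IGF1R averaged 7.05, 6.27 and 6.20 TPM. The IGF2R libraries did not overlap those of INSR, and INSR did not differ from IGF1R beyond their spread. IGF1R, the main receptor for IGF1 and IGF2, is on chromosome 15 (98648539 to 98964530). It was at 8.11, 4.75 and 5.74 TPM in vehicle, 3.50, 2.16 and 2.97 TPM after FIDAS-5 and 7.63, 6.88 and 5.06 TPM after JQ1. All FIDAS-5 libraries were below all others, and JQ1 and vehicle overlapped. The mean with FIDAS-5 was 2.16-fold lower than in vehicle, a difference of -0.88 (SE 0.22) in log2(TPM + 1). With JQ1 the difference was 0.07 (95% interval -0.42 to 0.57).

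INSR, the insulin receptor on chromosome 19 (7112255 to 7294034), moved in the opposite direction with FIDAS-5. It was at 6.44, 6.04 and 6.34 TPM in vehicle, 14.1, 9.92 and 11.0 TPM after FIDAS-5 and 8.15, 7.51 and 5.00 TPM after JQ1. The FIDAS-5 libraries were above all others, and JQ1 and vehicle overlapped. The mean with FIDAS-5 was 1.86-fold that of vehicle, a difference of 0.79 (SE 0.19). With JQ1 the difference was 0.09 (95% interval -0.33 to 0.52).

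The ratio of INSR to IGF1R, which cancels the scaling of a library, was 0.794, 1.27 and 1.10 in vehicle, 4.04, 4.60 and 3.69 after FIDAS-5 and 1.07, 1.09 and 0.988 after JQ1. It was thus near 1 in vehicle and JQ1 libraries and about 4 in every FIDAS-5 library. The sum of INSR and IGF1R overlapped between the groups, at 10.8 to 14.6 TPM in vehicle, 12.1 to 17.6 after FIDAS-5 and 10.1 to 15.8 after JQ1. Within FIDAS-5 the ratio varied less between libraries than either level did, since replicate 2 was lowest for both receptors.

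IGF2R, which clears IGF2 and carries lysosomal enzymes, was higher with both compounds. It lies on chromosome 6 from 159969099 to 160113507. It was at 7.66, 6.79 and 6.69 TPM in vehicle, 14.0, 9.43 and 13.7 TPM after FIDAS-5 and 21.0, 18.3 and 16.3 TPM after JQ1. The 3 groups did not overlap. The mean was 1.76-fold that of vehicle with FIDAS-5 and 2.63-fold with JQ1, and the differences in log2(TPM + 1) were 0.72 and 1.28 (SE 0.17 for each). The antisense RNA AIRN overlaps IGF2R and averaged 0.101 TPM in vehicle, 0.101 after FIDAS-5 and 0.307 after JQ1. Whether the counting used strand is not given in the sources used here, so reads of the overlapping pair may not be told apart.

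The ratio of IGF2R to IGF1R was 1.18 ± 0.243 in vehicle, 4.33 ± 0.323 after FIDAS-5 and 2.88 ± 0.298 after JQ1 (SD, n = 3). The ratio of IGF2R to INSR was 1.12 ± 0.0672 in vehicle, 1.06 ± 0.165 after FIDAS-5 and 2.76 ± 0.438 after JQ1. IGF2R and INSR thus kept their proportion with FIDAS-5, within the spread of the libraries, and IGF2R alone of the receptors stood higher with JQ1.

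**Figure D3:**
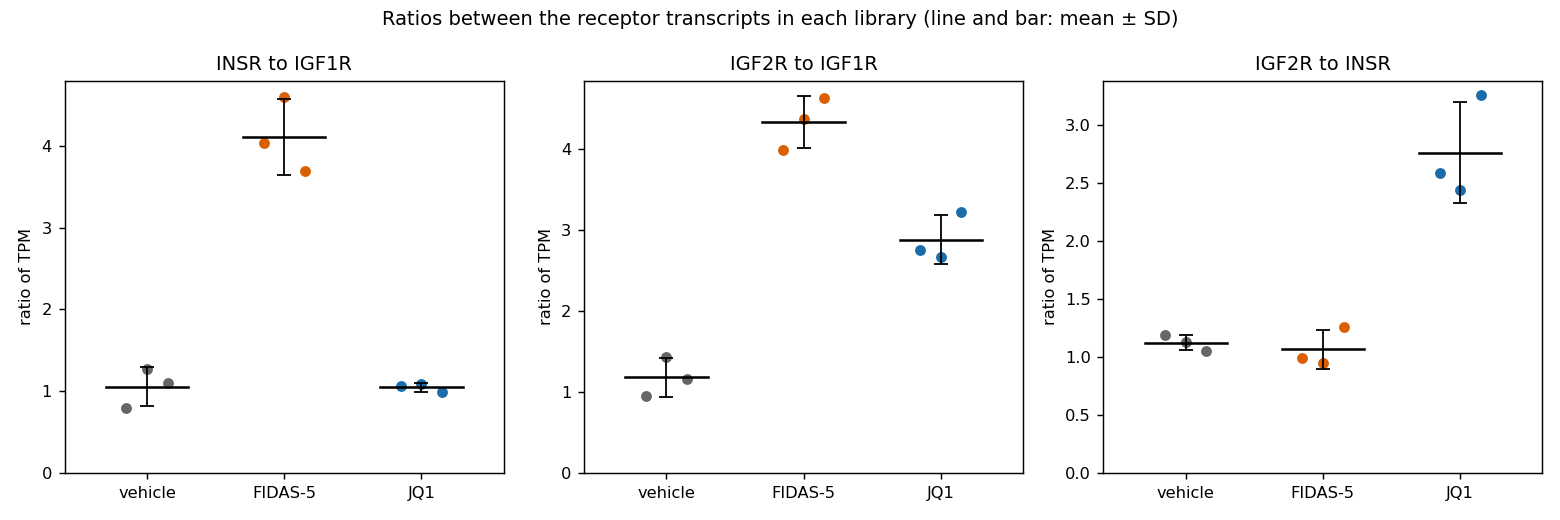
Ratios of TPM between the receptor transcripts in each library; points are libraries, and the line and bar are the mean ± SD of 3. The ratio of INSR to IGF1R was 3.69 to 4.60 with FIDAS-5 against 0.794 to 1.27 in vehicle and 0.988 to 1.09 with JQ1.

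IRS2, the adaptor that carries insulin signals in hepatocytes, was listed at 0 in 7 of the 9 libraries. The exceptions were FIDAS-5 replicate 1, at 0.00710 TPM, and JQ1 replicate 2, at 0.0272 TPM. Its relative IRS1 was at 6.34 ± 2.06 TPM in vehicle, 9.55 ± 1.88 after FIDAS-5 and 8.82 ± 1.73 after JQ1 (SD, n = 3), with no call in any comparison (limma adjusted p = 0.148, 0.178 and 0.773).

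Called genes are those with a Benjamini-Hochberg adjusted p under 0.05 over all genes in limma. With FIDAS-5 against vehicle, 4 of the 7 tested genes were called higher (IGFBP1, IGFBP3, IGF2R and INSR) and IGF1R was called lower, beside 20.2% of all genes called (12.6% higher and 7.60% lower). The same 5 had groups that did not overlap, 4 higher and 1 lower, beside 39.3% of all genes (20.9% higher and 18.4% lower). IGFBP1 was called in all 20 alternatives tried. The other 4 were each lost when certain single libraries were left out, and the count of 5 became 1 without vehicle replicate 3, 2 without FIDAS-5 replicate 3, 3 without vehicle replicate 2 and 3 without FIDAS-5 replicate 1.

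With JQ1 against vehicle, IGF2R was called higher and IGFBP1 and IGFBP3 lower, 3 of 7, beside 38.5% of all genes (2582 genes higher and 2637 lower, of 13573). Groups did not overlap for 5 of the 7, with IGFBP4 and IGFBP6 added, 2 higher and 3 lower, beside 50.7% of all genes (24.5% higher and 26.2% lower). The call of IGFBP1 was lost with quantile normalization and without JQ1 replicate 2. The comparisons with vehicle share the vehicle libraries. With JQ1 against FIDAS-5, IGF1R and IGF2R were called higher and IGFBP1, IGFBP3, IGFBP6 and INSR lower, 6 of 7, beside 34.8% of all genes (16.4% higher and 18.5% lower). The differences on the log2 scale were -4.24 (SE 0.14) for IGFBP1, -1.29 (SE 0.11) for IGFBP3, -0.73 (SE 0.18) for IGFBP6, 0.96 (SE 0.22) for IGF1R, 0.56 (SE 0.17) for IGF2R and -0.69 (SE 0.19) for INSR. The call of IGF2R was lost without vehicle replicate 3, FIDAS-5 replicate 2, JQ1 replicate 1 or JQ1 replicate 2 and in a fit of only the 6 libraries compared. That of INSR was lost without FIDAS-5 replicate 1 and with the third libraries of both compounds left out together. IGFBP4 was not called, at 0.51 (95% interval 0.09 to 0.92). No library of JQ1 overlapped a library of FIDAS-5 for any of the 7 genes, 3 higher and 4 lower, beside 47.6% of all genes (22.7% higher and 25.0% lower).

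**Figure D4:**
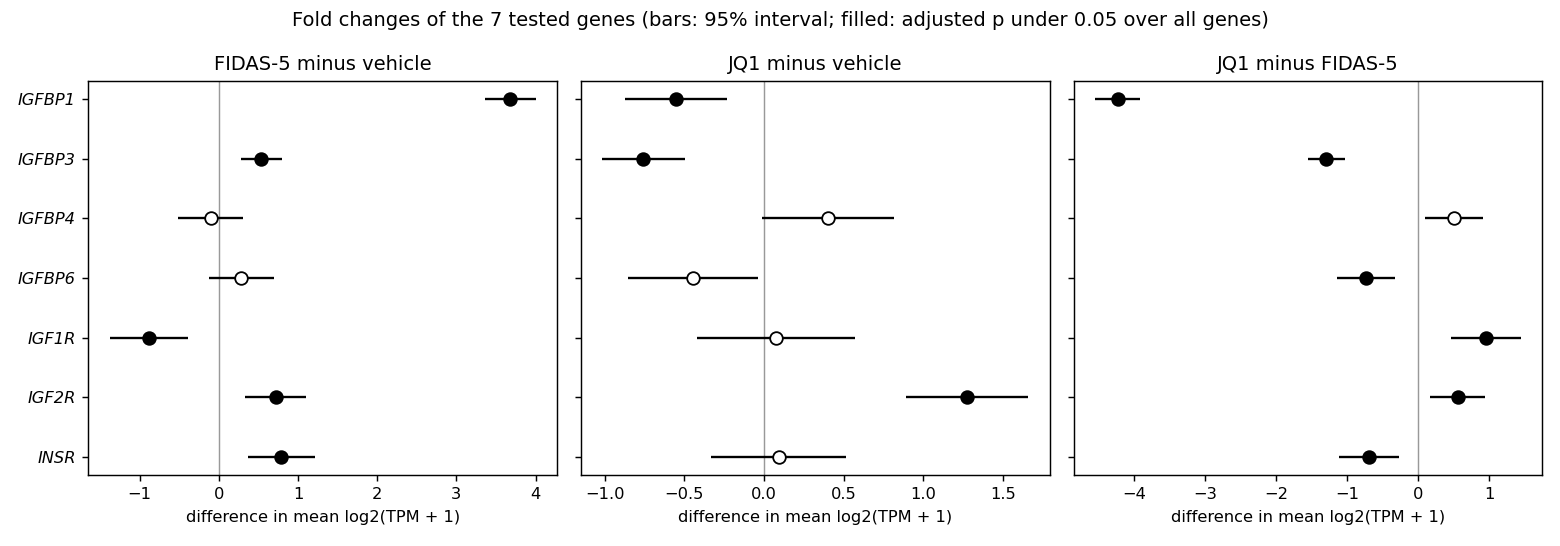
Difference in mean log2(TPM + 1) for the 7 tested genes in each comparison, with the 95% interval of the limma fit; filled points were called over all genes. IGFBP1 is at 3.68 with FIDAS-5 and -0.55 with JQ1 against vehicle, and IGF2R is to the right of 0 in all 3 panels.

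The genes most like IGFBP1, IGFBP3 and IGF2R, the 3 with the widest range between group means, were found by the Pearson correlation of log2(TPM + 1) over the 9 libraries, among 2164 genes whose mean reached 5 TPM in a group, with a range of at least 1 on the log2 scale. The points are 3 groups of 3 libraries, so any gene with the same order of groups scores high. Nearest to IGFBP1 were CIDEC, a lipid droplet protein (r = 0.996), the bilirubin-conjugating enzyme UGT1A1 (0.995), the peptide transporter TAP1 (0.995), the cytochrome P450 CYP1A1 (0.994) and the secreted cytokine GDF15 (0.994). CIDEC, the closest, averaged 1.33 TPM in vehicle, 26.0 after FIDAS-5 and 0.269 after JQ1. Its level was near that of IGFBP1 after FIDAS-5 and above it in the other groups. UGT1A1 shares exons with its relatives, so its level is uncertain. Nearest to IGFBP3 were prothrombin, F2 (0.994), RAP1GAP, ICAM2, VASP and RGS3 (each 0.993). F2 was at 21.9 ± 3.13 TPM in vehicle, 45.3 ± 1.29 after FIDAS-5 and 7.77 ± 1.06 after JQ1 (SD, n = 3). Among those nearest to IGF2R were the cholesterol transporter NPC1 (0.993), UBE2D4 (0.990), HTT (0.987) and SPTAN1 (0.985). NPC1 was at 25.5 ± 3.58, 47.9 ± 9.30 and 79.8 ± 6.43 TPM in vehicle, FIDAS-5 and JQ1 libraries.

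Other genes of the pathway were taken from lists of 78 symbols, of which 61 were tested. The lists were chosen with earlier results of these data known, so their counts and adjusted p are descriptions. IGFBP7, SOCS2 and G6PC passed the filter only because of the FIDAS-5 libraries, and H19 only because of the vehicle libraries. The calls of these genes describe them and support nothing. With FIDAS-5, 9 of the 61 were called higher and 4 lower (21.3%). This split became 10 and 10 with the GC trend removed and 15 and 3 over protein-coding genes only. With JQ1, 19 were called higher and 7 lower (42.6%), and between the compounds 14 were called higher with JQ1 and 8 lower (36.1%). These shares are near those of all genes. The split by direction with JQ1 was less even than the 2582 higher and 2637 lower over all genes. Medians of the log2 differences were 0.05 with FIDAS-5 and 0.37 with JQ1, beside -0.02 and -0.01 over all genes. The count of 13 with FIDAS-5 became 7 without vehicle replicate 3, FIDAS-5 replicate 2, FIDAS-5 replicate 3 or JQ1 replicate 2, and the count of 26 with JQ1 became 17 without JQ1 replicate 2. Between the compounds the count of 22 became 14 without FIDAS-5 replicate 3 or JQ1 replicate 2.

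**Figure D5:**
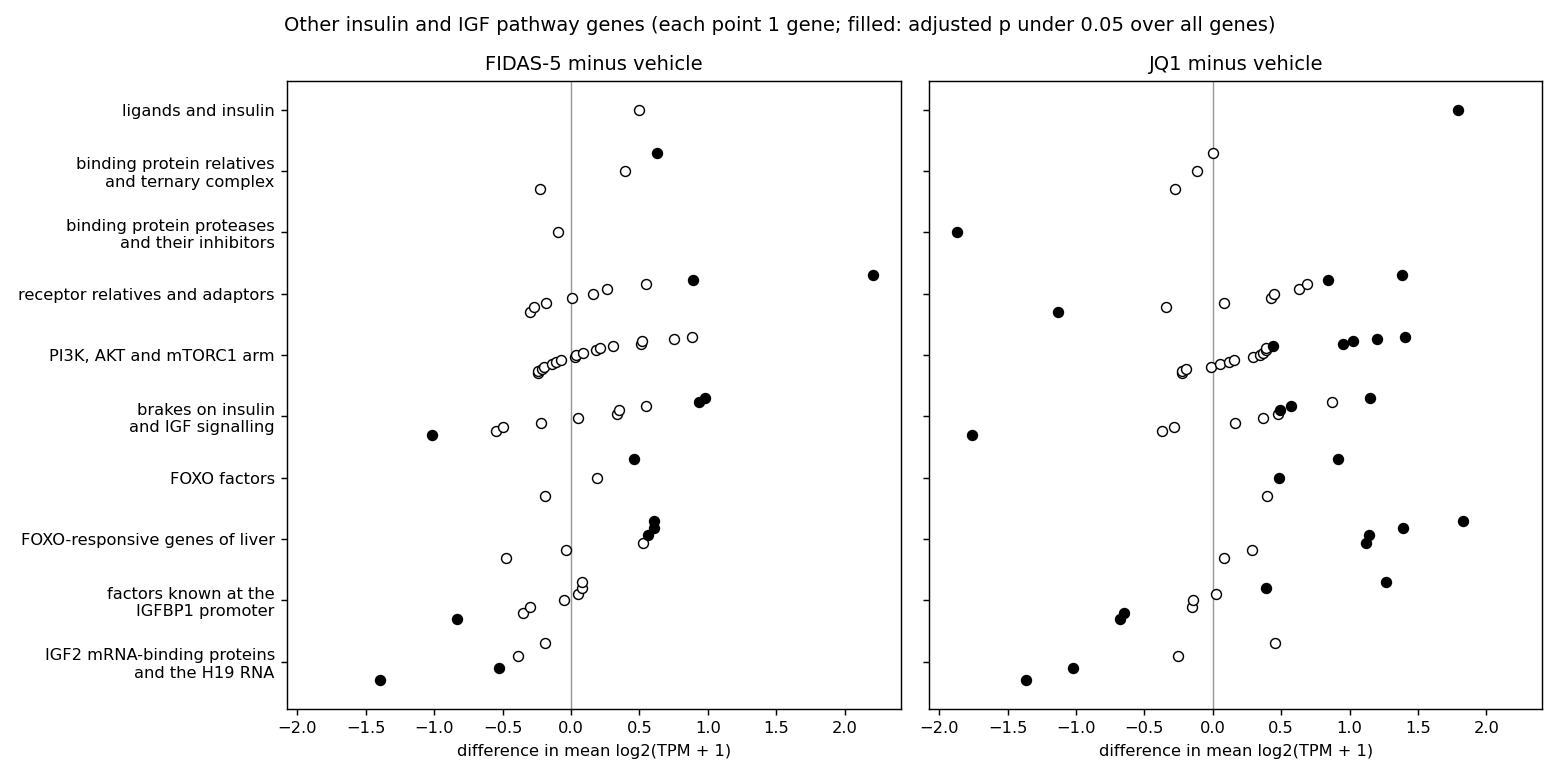
Difference in mean log2(TPM + 1) against vehicle for the 61 tested pathway genes, by list; filled points were called over all genes. Called genes run from -1.87 (STC2 with JQ1) to 2.21 (SOS1 with FIDAS-5).

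Among the ligands, IGF2 was the only one tested. It was at 288, 61.1 and 155 TPM in vehicle, 234, 163 and 202 TPM after FIDAS-5 and 552, 486 and 428 TPM after JQ1. All JQ1 libraries were above all others, and IGF2 rose by 1.79 (SE 0.46) on the log2 scale with JQ1 (limma adjusted p = 0.0144). With FIDAS-5 it did not pass the test (0.50, limma adjusted p = 0.492), and the vehicle libraries spread widely. IGF1 averaged under 0.5 TPM in every group, and INS, the insulin gene, was listed at 0 throughout. The readthrough transcript INS-IGF2 was at most 0.386 TPM. H19, the noncoding RNA next to IGF2 in an imprinted domain, fell with both compounds, from 2.53, 1.74 and 2.42 TPM in vehicle to 0.0706, 0.261 and 0.345 TPM with FIDAS-5 and to 0.0953, 0.344 and 0.313 TPM with JQ1. Its differences were -1.40 and -1.36 (limma adjusted p = 0.000488 and 0.000251). IGF2BP1, which binds and stabilizes IGF2 and other mRNAs, averaged 73.0 TPM in vehicle, 50.6 after FIDAS-5 and 35.7 after JQ1, and fell by 0.53 and 1.02 on the log2 scale (limma adjusted p = 0.0454 and 0.00118), the former call lost in 9 of 20 alternatives.

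Of 3 tested relatives of the binding proteins, IGFBP7 rose with FIDAS-5, from 0.611, 0.326 and 0.808 TPM to 1.25, 1.43 and 1.60 TPM (log2 difference 0.63, limma adjusted p = 0.0137), a call lost without FIDAS-5 replicate 3. It was at 0.278, 0.329 and 0.284 TPM with JQ1 (-0.28, limma adjusted p = 0.151). Its group means had the same order as those of IGFBP1 and IGFBP3, but vehicle and JQ1 overlapped. STC2, stanniocalcin 2, an inhibitor of the protease that cleaves IGFBP4, was the only tested gene of the protease list. It fell with JQ1 from 6.05, 7.01 and 5.63 TPM to 1.20, 0.946 and 0.792 TPM (log2 difference -1.87, SE 0.15, limma adjusted p = 4.33e-05) and was at 6.82, 4.97 and 5.62 TPM with FIDAS-5.

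Among 9 tested receptor relatives and adaptors, SHC1, an adaptor that links receptors to the RAS pathway, moved in opposite directions. It was at 46.1, 51.1 and 45.0 TPM in vehicle, 93.5, 81.2 and 91.5 TPM after FIDAS-5 and 21.7, 20.5 and 21.0 TPM after JQ1, and the groups did not overlap. It rose by 0.89 with FIDAS-5 and fell by 1.13 with JQ1 on the log2 scale (limma adjusted p = 0.00106 and 0.000144). SOS1, the exchange factor downstream of SHC1 and GRB2, rose with FIDAS-5 from 4.89, 2.17 and 3.95 TPM to 33.4, 18.8 and 12.4 TPM (2.21, SE 0.45, limma adjusted p = 0.00938). GRB10, an adaptor that dampens INSR and IGF1R, rose with JQ1 from 5.79, 5.56 and 5.78 TPM to 18.5, 17.6 and 13.8 TPM (1.38, limma adjusted p = 0.000197).

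Of 17 tested genes of the PI3K, AKT and mTORC1 arm, 0 were called with FIDAS-5 by limma, where 5 had an unadjusted p under 0.05, and 5 rose and none fell with JQ1, beside 20.2% and 38.5% of all genes called. PDPK1, the kinase that activates AKT, rose by 0.95 and TSC2, which restrains mTORC1, by 1.41 with JQ1 (limma adjusted p = 0.00442 and 0.00435). Of 10 tested brakes on the pathway, 2 rose and 1 fell with FIDAS-5, and 3 rose and 1 fell with JQ1, 30% and 40% beside the same 20.2% and 38.5%. SOCS1, an inhibitor of cytokine signalling, fell by 1.01 with FIDAS-5 (limma adjusted p = 0.00710). SOCS2 rose by 0.93 with FIDAS-5 and by 0.57 with JQ1 (limma adjusted p = 0.00220 and 0.0119). TRIB3, a pseudokinase that binds AKT, fell by 1.76 with JQ1 (limma adjusted p = 0.000965), and PHLPP1, an AKT phosphatase, rose by 1.15 (limma adjusted p = 0.00491).

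FOXO1, the factor through which insulin acts on IGFBP1, was at 4.03 ± 1.73 TPM in vehicle, 4.57 ± 1.08 after FIDAS-5 and 5.46 ± 1.36 after JQ1 (SD, n = 3) and was not called against vehicle (limma adjusted p = 0.676 and 0.291). FOXO3 rose by 0.92 with JQ1 (limma adjusted p = 0.00923). FOXO4 averaged 1.48 TPM in vehicle, 2.40 after FIDAS-5 and 2.47 after JQ1. It rose by 0.46 and 0.49 (limma adjusted p = 0.0306 and 0.0139), calls lost in 8 and 3 of 19 alternatives. Of 6 tested genes of liver that respond to FOXO factors, 3 were called higher with FIDAS-5 and 4 with JQ1, and none of the 6 lower. Over all genes, 12.6% were called higher with FIDAS-5 and 2582 of 13573 with JQ1. Of the 3, the calls of TXNIP and BCL6 were lost in 11 and 12 of 20 alternatives, and G6PC passed the filter only because of the FIDAS-5 libraries. Listed genes under 1 TPM were not tested. Among them, PPARGC1A averaged 0.207 TPM in vehicle and 0.0331 after FIDAS-5, and PDK4 0.261 in vehicle and 0.0999 after JQ1. PCK1 averaged 0.186 TPM in vehicle and 0.425 after FIDAS-5. G6PC, the last enzyme of glucose output, rose with FIDAS-5 from 0.735, 0.645 and 0.856 TPM to 1.45, 1.89 and 1.39 TPM (0.56, limma adjusted p = 0.0120) and was at 0.830, 0.808 and 0.900 TPM with JQ1. BCL6, a transcriptional repressor, rose by 1.83 with JQ1 and by 0.61 with FIDAS-5 (limma adjusted p = 0.000131 and 0.0474). Of 7 transcription factors known at the IGFBP1 promoter, NR3C1, the glucocorticoid receptor, fell by 0.83 with FIDAS-5 (limma adjusted p = 0.0403), a call lost in 7 of 20 alternatives. With JQ1, FOXA1 rose by 1.27 and ATF4 fell by 0.65 (limma adjusted p = 0.00928 and 0.00870).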

How the data were processed

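Total RNA from 9 Huh7 libraries (3 groups of 3) was sequenced, and the authors deposited 1 table of TPM per gene symbol, estimated with Salmon on hg38 per the submitters' processing notes. The Salmon version and the transcript annotation are not given in the sources used here. TPM keeps no depth, so no counting interval can be given. The members and lists were chosen with earlier results of these data known. The 13573 of 27800 genes that reached 1 TPM in 3 or more libraries were compared on log2(TPM + 1) with limma 3.58.1 in R 4.3.3, two-sided, with all 9 libraries in 1 fit, 6 residual and 2.86 prior degrees of freedom, and Benjamini-Hochberg adjustment over all genes. A fold change on this scale understates changes of low genes. Fold values are ratios of mean TPM. The 10 genes were all named, pathway genes were named to describe their lists, called ones first, and the 5 best correlated genes were named for each of 3 members, except that some items are not reported here. Gene positions are from GENCODE 29 on hg38. Deviations from the group means of same-numbered FIDAS-5 and JQ1 libraries correlated at 0.26, 0.102 and 0.422. Those of unlike-numbered ones correlated at -0.35 to 0.179. The labels state no pairing. Same-numbered libraries of the 2 compounds also departed with GC content in the same direction. Pairing by number and a shared GC departure cannot be told apart here. The fit was tested on simulated data with independent noise per gene. The simulation held no departures with GC content, so it does not tell how the fit behaves under them. Alternatives covered the pseudocount, the filter, scaling, GC content, the libraries in the fit and the replicate block. Figures were drawn with matplotlib 3.10.9 in Python 3.11.15.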

Additional observations from a re-analysis of the deposited data

How the results depend on the processing

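None of the results recomputed under the 20 alternatives changed direction while called. Leaving out 1 library gave 1 to 5 called members with FIDAS-5 against vehicle (main count 5), 2 to 4 with JQ1 (main count 3) and 5 to 7 between the compounds (main count 6), and 7 to 14, 17 to 31 and 14 to 28 called pathway genes (main counts 13, 26 and 22). With a filter of 5 TPM, which tests fewer genes, 7 pathway genes were called with FIDAS-5. With the GC trend removed, 20 were called with FIDAS-5 (10 higher, 10 lower) and 36 between the compounds; the cause was not tested. The split of all called genes with FIDAS-5, 1711 higher and 1031 lower, became 1904 and 1756 with quantile normalization and 2382 and 2007 with the GC trend removed. With the replicate block 5, 3 and 6 members and 14, 26 and 26 pathway genes were called in the same order of comparisons, and no call of a member changed. Deviations of vehicle libraries correlated with those of same-numbered libraries of the compounds at -0.0765 to 0.16. TPM without counts limits what can be said of genes near 0.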

Other observations

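IRS2 lies in a run of 5 adjacent protein-coding genes on chromosome 13 (108596152 to 110561733) that were nearly silent in all 9 libraries: MYO16, IRS2, COL4A1, COL4A2 and RAB20. The run was noticed after the values had been seen. COL4A1 and COL4A2 encode chains of basement membrane collagen, and RAB20 a small GTPase. No gene of the run exceeded 0.0301 TPM in any library, a level that 13.1% of the 19028 protein-coding genes listed never exceeded. The next gene below the run, TNFSF13B, averaged 0.107 TPM in vehicle, and ABHD13 beyond it 3.26 TPM. The next gene above, NAXD, averaged 6.85 TPM. Within 5 Mb of IRS2, 9 of 41 protein-coding genes (22.0%) were listed at 0 in every library, beside 9.96% of all. That share was 28.6% of 7 genes within 1 Mb and 14.3% of 14 genes within 2 Mb. Genes that never reached 1 TPM were 16 of the 41, beside 7236 of the 19028, so by that measure the region was like the rest.

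The ratio of IGF2 to IGF2R was 37.6, 9.0 and 23.1 in vehicle, 16.8, 17.3 and 14.7 with FIDAS-5 and 26.2, 26.5 and 26.3 with JQ1. It varied widely between vehicle libraries and little between JQ1 libraries, where ligand and receptor were both higher than in vehicle.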
